A study of Mus musculus with 4 samples.

Results

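The transcriptome of mouse embryonic fibroblasts (MEFs) lacking FAN was set against that of wild-type MEFs, both kept without serum and without TNF. The members are 2 of the 4 arrays of the series, taken by title as "FAN -/-, untreated" and "FAN +/+, untreated", and each difference is the knockout value minus the wild-type value. Both cell populations were of C57BL/6 background and stood in DMEM without serum for 24 h before RNA extraction. The remaining pair of arrays, FAN -/- and FAN +/+ cells kept 8 h without serum and then 16 h with TNF at 50 ng/ml, shares no array with the untreated pair and was used only to see which genotype differences recurred. Total RNA was hybridised to whole-genome Affymetrix mouse arrays, 1 array per condition. The titles name 4 distinct conditions, but the genotype entry of the labels has the genotypes of the untreated knockout and of the TNF-treated wild type the other way round; the titles were followed. Whether the arrays of one genotype came from separate cell preparations, and how many embryos each held, is not stated in the labels.

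FAN, the product of Nsmaf, is a BEACH-domain adaptor protein that binds the intracellular part of the p55 TNF receptor and couples it to neutral sphingomyelinase, which releases ceramide from sphingomyelin. MEFs are a mixed mesenchymal culture grown out of whole embryos; the cells keep part of the positional gene expression of the body region they came from. Without serum most fibroblasts leave the cell cycle, so that residual proliferation, matrix production and basal inflammatory expression make up the baseline on which a later TNF stimulus acts.

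Array values are log2 probe set values as deposited. Of 18193 genes with a probe set naming that gene alone, 11924 lay above a floor of log2 6.27 (the median of all values) on at least 1 untreated array, 11167 of them on both. Values under the floor were raised to it, so a gene at the floor on one array has a difference that is a lower bound, written "at least". The median array value was 6.21 for wild type and 6.29 for knockout, and the 3' to 5' signal ratios of the control transcripts were 1.34 and 1.32 for b-actin and 1.09 and 1.03 for Gapdh. With 1 array on each side there is no replicate error and no test: differences are sizes, and a gene is called higher or lower at 2-fold or more. In bulk RNA, fewer cells of a type and less RNA per cell cannot be told apart.

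The Nsmaf array value was 8.95 in wild-type and 7.91 in knockout cells, a difference of -1.05, and -1.07 in the TNF pair. The transcript was therefore lower but above the floor on the array labelled knockout. Which part of the gene was deleted is not given, and if the probes lie outside that part the value is no check of the deletion. None of the other 7 FAN and BEACH family genes above the floor reached a 2-fold difference, nor did any of 11 genes of TNF receptors and their proximal signalling (median -0.18) or of 23 genes of sphingolipid metabolism (median -0.20). Tnfrsf1a, the p55 TNF receptor, had array values of 11.67 and 11.71, and Smpd2, a neutral sphingomyelinase, of 9.88 and 9.68. Their values in the wild-type and knockout arrays lay close together.

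The untreated knockout array had 177 genes (1.48% of those above the floor) higher than wild type by 2-fold or more, and 353 genes (2.96%) lower by as much. The median difference over all 11924 genes was -0.04, with quartiles at -0.24 and 0.15, and 44.9% of the genes had a positive difference. The imbalance was larger among big differences: at 4-fold or more 16 genes were higher and 72 lower, and at 8-fold or more the counts were 1 and 19. For 14 of the higher and 57 of the lower genes the size is a bound.

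The 19 genes at least 8-fold lower were led by Penk, Sfrp2 and Mmp3. Penk, which encodes the opioid precursor preproenkephalin, had an array value of 13.85 in wild type and 6.81 in the knockout, 131-fold lower, the largest difference of all genes. Sfrp2, a secreted modulator of Wnt signalling, was at 13.80 and 7.69 (68.6-fold lower). Both are secreted products, and both stood above the floor without FAN. Mmp3, the matrix protease stromelysin-1, was at 12.01 and 6.48 (46.5-fold lower), and Cxcl15, a CXC chemokine, at 12.91 and 7.58 (40.2-fold lower). Lcn2, an iron-siderophore-binding protein of the acute phase, was at 10.94 in wild type and at the floor in the knockout, at least 25.4-fold lower. The limb-patterning factor gene Hoxd13 was at 10.92 and 6.77 (17.8-fold lower). In wild-type cells these genes stood between 10.92 and 13.85.

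Matrix proteins among them were Coch (cochlin, 15.9-fold lower), Lum (the collagen-binding proteoglycan lumican, 15.7-fold), Comp (cartilage oligomeric matrix protein, 13.8-fold), Abi3bp (9.86-fold) and Prg4 (the joint lubricant lubricin, 9.02-fold). Reln, the extracellular guidance protein reelin, and Steap4, a metalloreductase, lay at the floor in the knockout and were at least 11.7-fold and at least 11.1-fold lower. Also lower were Tmem26 (11.0-fold), the cytokine gene Tslp (10.5-fold), Itih5, a hyaluronan-binding inhibitor heavy chain (at least 9.60-fold), the phospholipase gene Plce1 (9.12-fold), the ferritin receptor gene Scara5 (9.01-fold) and the kinase gene Nrk (at least 8.17-fold). These 19 genes were lower in the TNF pair too, by at least 1.56 log2 (Tmem26) to 6.15 log2 (Penk), except Nrk, which lay at the floor on both TNF arrays.

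Higher genes were led by Cd99, a small cell-surface glycoprotein of leukocyte and junctional adhesion, with array values of 5.72 in wild-type and 10.38 in knockout cells, at least 17.3-fold higher; its probe set is of a type that can share probes with other transcripts. Plac8 went from 8.86 to 11.74 (7.33-fold higher), and F11r, the junctional adhesion molecule JAM-A, from 6.78 to 9.56 (6.89-fold). The other F11r probe set lay below the floor on both arrays and gives no reading, so the value rests on 1 probe set. Among secreted products, C1qtnf3, a C1q-related adipokine, was 5.43-fold, Igfbp6, an IGF-binding protein, 4.31-fold and Sfrp1, a Wnt antagonist, 4.03-fold higher, and Col7a1, the anchoring-fibril collagen, was 4.34-fold higher. Spns2, the sphingosine-1-phosphate exporter, was at 7.37 and 9.71 (5.05-fold higher). Crabp2, which delivers retinoic acid to its nuclear receptors, was 4.12-fold higher. Pkp2, a desmosomal plaque protein, and Actg2, the enteric smooth muscle actin, were 4.02-fold and 3.86-fold higher.

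**Figure D1:**
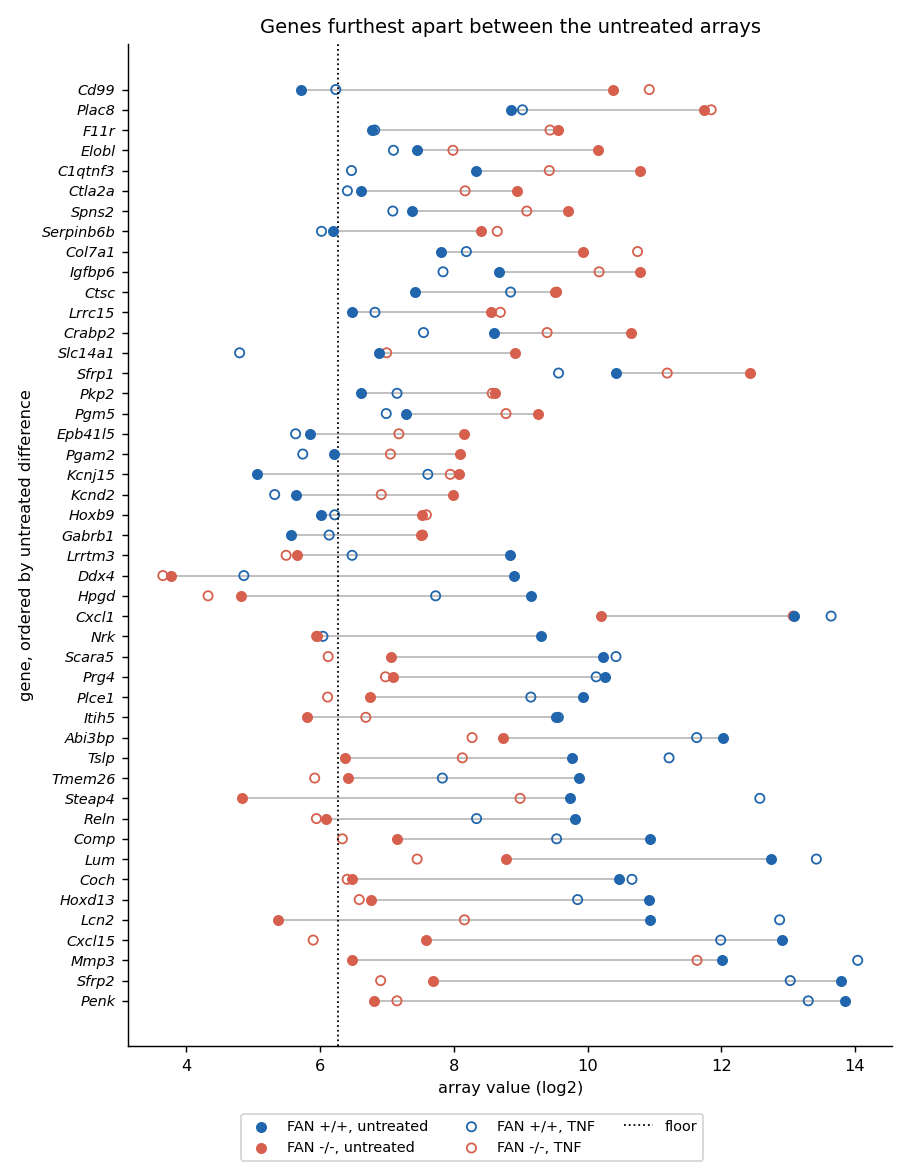
Array values (log2, horizontal axis) of the genes furthest apart between the untreated arrays, one row per gene, ordered by the untreated difference; filled points are the untreated arrays, open points the TNF-treated ones, blue FAN +/+ and red FAN -/-, and the dotted line is the floor at 6.27. Penk and Sfrp2 stand near 13.8 in untreated wild-type cells and at 6.81 and 7.69 in untreated knockout cells, and in most rows the open points keep the order of the filled ones.

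The genotype difference was next compared with that of the TNF-treated pair, in which 1.58% of 11971 genes were higher and 2.7% lower by 2-fold or more. Of the 177 genes higher in untreated knockout cells, 169 (95.5%) had the same sign there and 105 (59.3%) were again at least 2-fold higher. Of the 353 lower genes, 339 (96.0%) had the same sign and 179 (50.7%) were again at least 2-fold lower. No gene was 2-fold in opposite directions. Recurrence went with size: among lower genes 125 of 281 recurred at 2-fold where the untreated difference was 2- to 4-fold, 36 of 53 at 4- to 8-fold and 18 of 19 above 8-fold, the exception being Nrk. Among higher genes the counts were 92 of 161, 12 of 15 and 1 of 1.

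Some large untreated differences were much smaller with TNF. The chemokine gene Cxcl1 had array values of 13.09 and 10.20 untreated (a difference of -2.89) and 13.64 and 13.08 with TNF (-0.57). Dkk2, a secreted Wnt antagonist, was at 10.32 and 7.81 untreated (-2.51) and at 7.57 and 7.17 with TNF (-0.40), with both values lower under TNF. Mki67, the proliferation antigen Ki-67, was at 8.78 and below the floor untreated (at least -2.52) and at 7.75 and 6.27 with TNF. Conversely Lum was further apart with TNF (-5.97) than without (-3.97).

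**Figure D2:**
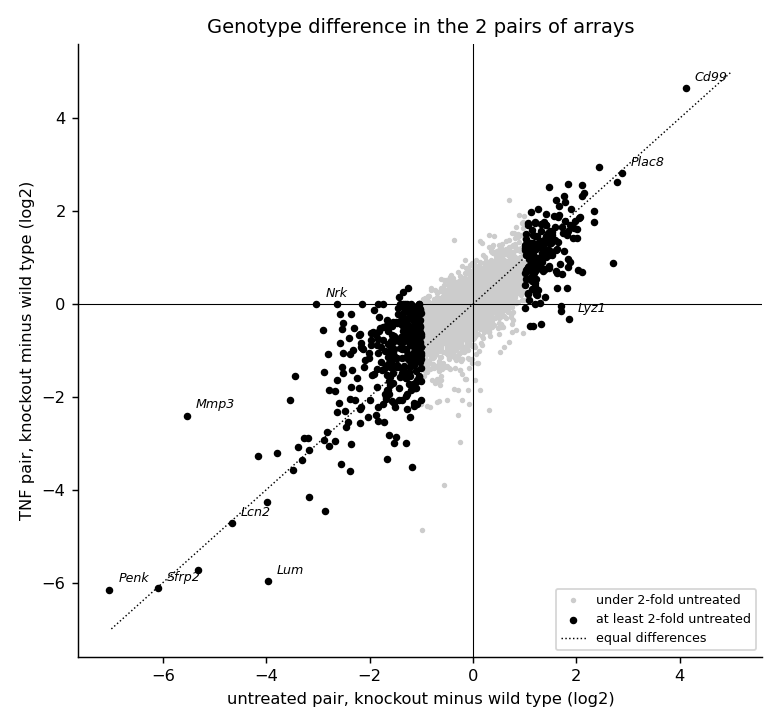
Knockout minus wild-type log2 difference in the TNF pair (vertical) against that in the untreated pair (horizontal) for the 11924 genes above the floor; black points are at least 2-fold apart untreated, and the dotted line marks equal differences. Penk, Sfrp2, Lcn2, Cd99 and Plac8 lie near the line, Mmp3 and Nrk above it and Lum below it.

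Genes of cell division differed in 1 direction in serum-free cells. Of 33 mitosis and spindle genes above the floor, 14 were at least 2-fold lower, against 2.96% of all genes, and none was higher, with a median of -0.95 against -0.04 for all genes and 3 positive differences. Of 27 genes of DNA replication and S phase, 7 were lower and none higher, with a median of -0.65. The mitotic genes include Top2a, which untangles sister chromatids (8.88 in wild-type and 6.76 in knockout cells, 4.34-fold lower), Ccna2, cyclin A2 (8.87 and 7.33, 2.90-fold), Cdk1, the kinase that drives mitotic entry (9.82 and 8.60, 2.32-fold), and Birc5, survivin (8.13 and below the floor, at least 3.63-fold). Among replication genes, the helicase subunit genes Mcm5, Mcm6 and Mcm3 were 3.63-fold, 3.06-fold and 2.28-fold lower, thymidine kinase Tk1 3.13-fold, DNA ligase Lig1 2.59-fold, primase Prim1 2.32-fold and the sliding clamp Pcna 2.02-fold. Rrm2, a ribonucleotide reductase subunit of the same list, was at 10.32 and 10.16.

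With TNF the medians were closer to 0, at -0.22 for mitosis and -0.33 for replication. The size of the mitosis median depended on the floor and on the probe set: with the floor at the 70th percentile of all values it was -0.41, and with each gene's second probe set -0.40.

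Promoters of these lists carry known cell-cycle elements, and those of Mcm6, Cdk1 and Mki67 are printed here because these genes were clearly lower; that of Ifit1 belongs to the interferon genes described further on. They are the 150 bases before the RefSeq start of each gene (GRCm38.p6), 5' to 3' on the gene's strand, chosen after their values were seen. Capitals mark TTTGGCGC or TTTCGCGC (E2F site) in Mcm6, TTTGAA (the cell-cycle homology region, CHR) in Cdk1 and Mki67, and the interferon-stimulated response element (ISRE, GAAA repeated after any 2 bases) in Ifit1, each searched on both strands.
Mcm6 (chr1:128359706-128359855, - strand): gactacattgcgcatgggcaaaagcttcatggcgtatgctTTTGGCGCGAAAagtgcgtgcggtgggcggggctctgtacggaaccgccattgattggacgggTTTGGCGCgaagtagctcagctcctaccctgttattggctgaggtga
Cdk1 (chr10:69352913-69353062, - strand): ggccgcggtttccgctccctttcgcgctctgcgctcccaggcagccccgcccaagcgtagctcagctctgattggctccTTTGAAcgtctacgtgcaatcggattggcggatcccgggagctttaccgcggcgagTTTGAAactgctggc
Mki67 (chr7:135716380-135716529, - strand): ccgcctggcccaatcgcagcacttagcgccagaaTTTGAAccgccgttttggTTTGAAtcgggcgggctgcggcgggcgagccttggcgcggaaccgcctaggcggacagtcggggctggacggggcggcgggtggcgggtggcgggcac
Ifit1 (chr19:34640739-34640888, + strand): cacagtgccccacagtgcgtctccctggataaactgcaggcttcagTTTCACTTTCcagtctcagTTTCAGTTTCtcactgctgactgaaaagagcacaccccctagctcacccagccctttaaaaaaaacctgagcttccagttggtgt

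In windows of 300 bases (250 before and 50 after the start), an E2F site stood in 10 of the 24 replication promoters that matched the RefSeq table (41.7%), against 0.929% of all 27025 promoters of the table and 1.80% of genes above the floor. It stood in 12 of 265 genes at least 2-fold lower (4.53%) and in 2 of 126 at least 2-fold higher (1.59%). The 12 lower genes were Cdk1, Dnmt1, Fmr1, Gprasp2, Hopx, Lig1, Mcm3, Mcm5, Mcm6, Ncapd2, Plce1 and Zfp367. The CHR stood in 22 of 29 mitosis promoters (75.9%), 20.2% of all promoters and 13.99% of genes above the floor. Among lower genes it stood in 22.6% and among higher genes in 13.5%. The lists hold textbook targets of these elements, so their shares describe the lists, and a match is no evidence of binding.

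Inhibitors of the G1 to S transition were among the higher genes. Of 24 genes of G1 cyclins, CDK inhibitors and the RB pathway, 3 were at least 2-fold higher and none lower. The shares of all genes were 1.48% and 2.96%. Most of the list went the other way, with 17 negative and 7 positive differences and a median of -0.21. The 3 higher genes were Cdkn2b, the CDK4/6 inhibitor p15 (10.98 in wild-type and 12.21 in knockout cells), Cdkn2a and Rb1. Cdkn2a, the p16 and ARF locus, was at 9.38 and 10.44, and Rb1, the retinoblastoma protein gene, at 9.04 and 10.05. Ccnd1, the serum-responsive cyclin D1, was at 13.11 and 12.20, short of 2-fold by its brightest probe set. The other Ccnd1 probe sets gave -0.71 and -1.13. In the TNF pair the differences of Cdkn2b, Cdkn2a and Rb1 were 0.54, 0.23 and 0.68, none of them 2-fold.

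Targets of the tumour suppressor p53 had small, mostly positive differences. Of 21 genes, 20 had a positive difference, against 44.9% of all genes, and 3 were at least 2-fold higher, against 1.48%. The median was 0.48, and 0.49 in the TNF pair. Perp, an effector of p53-dependent apoptosis and a desmosome component, was at 9.37 and 10.97 (3.03-fold higher). The BH3-only death gene Pmaip1 was 2.58-fold higher, and Mdm2, the ubiquitin ligase that limits p53, at 11.56 and 12.72 (2.23-fold). Cdkn1a, the p21 CDK inhibitor, was at 12.77 and 13.45, and Ccng1 at 12.49 and 13.19. In the TNF pair all 5 had positive differences, of 0.55 (Ccng1) to 2.24 (Perp). By their brightest probe sets Cdkn1a and Ccng1 reached 2-fold in neither pair. The other Cdkn1a probe set was at 12.07 and 13.23 untreated, a difference of 1.17, and gave 0.71 with TNF. Of 22 growth-arrest and serum-withdrawal genes, 3 were lower (Pdgfra, Dcn and Ndrg1), against 2.96% of all genes, and none higher. Their median was -0.43, and none of 21 immediate early factor genes reached 2-fold.

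**Figure D3:**
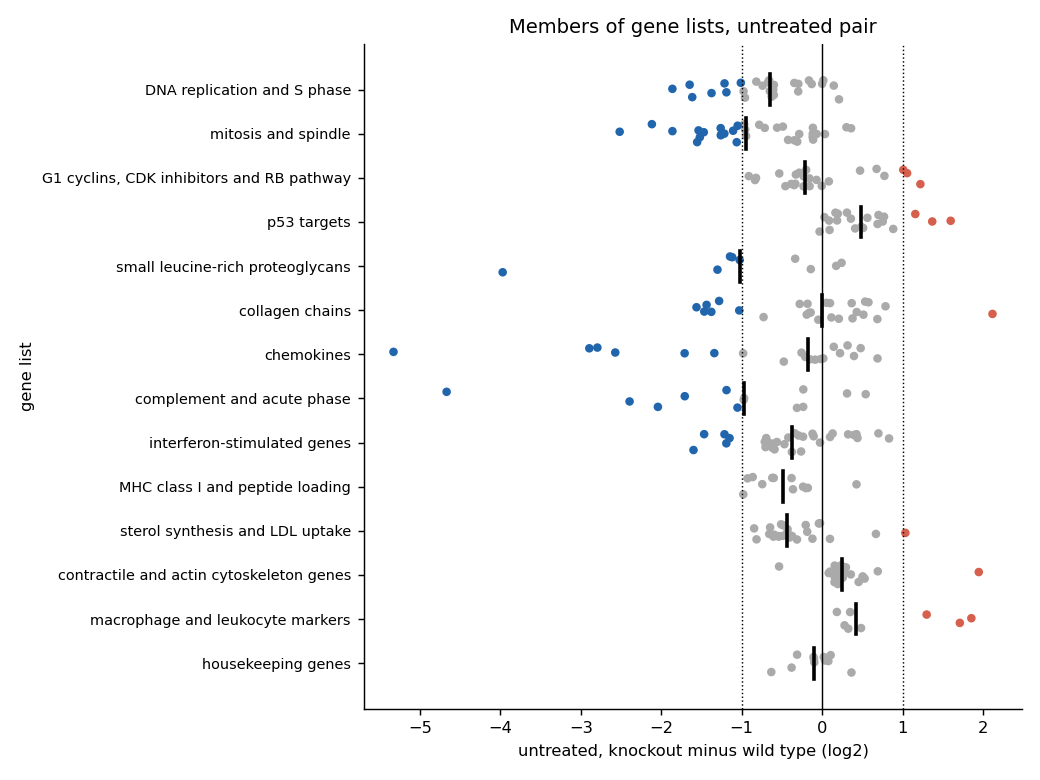
Untreated knockout minus wild-type log2 difference (horizontal) of each gene above the floor in 14 gene lists (rows); red points are at least 2-fold higher, blue points at least 2-fold lower, and black bars are list medians. The replication, mitosis, proteoglycan and complement medians lie between -0.65 and -1.03, the p53 target and leukocyte marker medians at 0.48 and 0.42, and no housekeeping gene reaches 2-fold.

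The direction of Hox gene differences varied by cluster. Hox genes encode homeodomain factors expressed in nested domains along the body and limb axes, and cultured fibroblasts retain such codes. Of 33 Hox genes with a probe set, 24 lay above the floor, 8 at least 2-fold higher and 4 lower, against 1.48% and 2.96% of all genes. All 7 HoxC genes had positive differences (median 1.13) and 5 reached 2-fold, led by Hoxc8 (9.68 in wild-type and 11.51 in knockout cells, 3.54-fold), Hoxc6 (8.49 and 10.20, 3.28-fold) and Hoxc10 (8.97 and 10.47, 2.82-fold). All 5 HoxB genes had positive differences (median 0.78), with Hoxb2 2.71-fold and Hoxb9 at least 2.38-fold higher.

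All 5 HoxD genes had negative differences (median -1.35). Hoxd13, which specifies the most distal limb and genital region, differed most, followed by Hoxd10 (8.15 and 6.31, 3.56-fold lower) and Hoxd11 (7.62 and below the floor, at least 2.56-fold). Within HoxA the 4 genes from Hoxa3 to Hoxa9 had positive and the 3 from Hoxa10 to Hoxa13 negative differences: Hoxa5 was 1.04 higher, Hoxa9 differed by 0.08, and Hoxa10, Hoxa11 and Hoxa13 by -0.47, -1.62 and at least -0.94. In the TNF pair the cluster medians were 0.07 for HoxA, 0.80 for HoxB, 0.87 for HoxC and -0.59 for HoxD. The sign was the same in both pairs for each of the 24 genes.

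**Figure D4:**
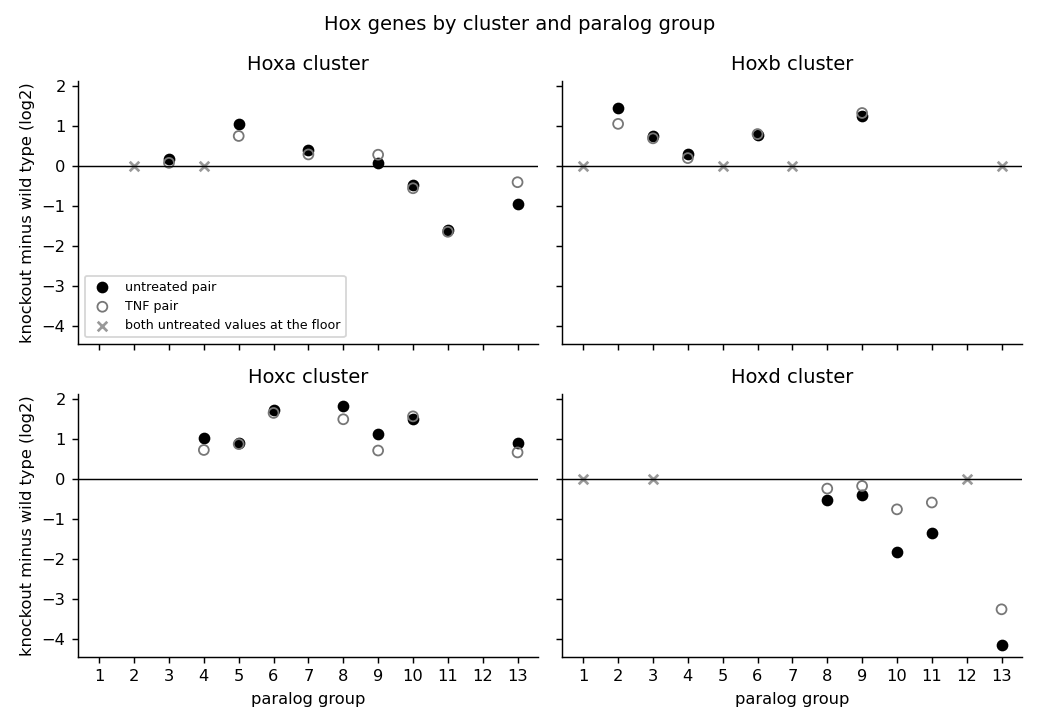
Knockout minus wild-type log2 difference (vertical) of Hox genes by paralog group (horizontal, group 1 anterior to group 13 posterior) in the 4 clusters; filled points are the untreated pair, open points the TNF pair, and crosses are genes at the floor on both untreated arrays. HoxB and HoxC points lie above 0, HoxD points below 0, and HoxA points pass from above to below 0 toward the posterior groups.

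Other patterning factors split as well: of 49 limb and mesenchymal transcription factor genes, 5 were at least 2-fold higher and 10 lower, with a median of -0.07. The shares of all genes were 1.48% and 2.96%. Msx1, a homeobox gene of limb and craniofacial mesenchyme, was at 10.90 and 8.11 (6.95-fold lower), and Osr2, a zinc finger gene of palate and joint mesenchyme, at 9.77 and 7.45 (5.01-fold). Hand2, which sets the anterior-posterior limb axis, was at 8.29 and below the floor (at least 4.05-fold lower), and so were the homeobox genes Lhx2 (at least 3.75-fold) and Barx1 (at least 3.68-fold). Ebf1 (3.60-fold), Lmx1b, which specifies dorsal limb fate (2.94-fold), and Twist1 (2.05-fold) were lower too. Higher were Sox11 (7.59 and 9.11, 2.88-fold), Meis2, Shox2, Irx3 and Wt1, a factor of mesothelium and kidney mesenchyme (at least 2.14-fold). The mesothelial markers Msln and Upk3b lay below the floor on both arrays.

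Of 28 genes of Wnt signalling, 5 were higher and 6 lower (median -0.15), against 1.48% and 2.96% of all genes. The direction differed among antagonists of one family. Sfrp2 was 68.6-fold lower while Sfrp1 was at 10.42 and 12.43, 4.03-fold higher. The receptor gene Fzd4 was 3.21-fold and the R-spondin receptor gene Lgr5 2.94-fold lower, and the Wnt amplifier Rspo3 differed by -1.59, whereas the ligand gene Wnt2 was 3.03-fold and the pathway inhibitor Nkd2 3.10-fold higher. Axin2, a general target of the pathway, was at 7.70 and 7.17, short of 2-fold.

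Growth factor genes differed in ligands, receptors and binding proteins. In the IGF axis, 4 of 19 genes were higher and 4 lower (median 0.01), against 1.48% and 2.96% of all genes. The ligand gene Igf1 was at 8.57 and 9.97 (2.64-fold higher). Its binding proteins went both ways, with Igfbp6 4.31-fold higher, Igfbp4 3.02-fold lower (13.17 and 11.58) and Igfbp3 2.20-fold lower. The protease genes Htra1 and Pappa of the same list were 3.60-fold and 2.12-fold higher. Igfbp5 was 4.53-fold lower by its brightest probe set, but 0.14 higher by the second. Among 32 FGF, PDGF, HGF and EGF-family genes, 2 were higher and 4 lower: the receptor genes Fgfr2 and Pdgfra were 3.21-fold and 2.70-fold lower, the ligands Kitl and Mdk 2.67-fold and 2.66-fold lower, and Pdgfa and the feedback inhibitor Spry1 2.17-fold and 2.87-fold higher. Among 30 TGF-beta and BMP genes, 3 were higher, including Inhba, the activin A subunit (10.95 and 12.27), and 2 lower, including the co-receptor Tgfbr3 (12.15 and 10.49).

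Of 23 imprinted genes, 3 were lower and 1 higher (median 0.04), against 2.96% and 1.48% of all genes. Mest, a paternally expressed mesodermal gene, was at 12.20 and 9.33 (7.32-fold lower), and -4.46 log2 apart with TNF. Plagl1, a zinc finger regulator of growth, was 2.15-fold lower and Peg3 2.30-fold higher, and Igf2, the fetal growth factor, was at 11.19 and 10.28.

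Among extracellular matrix genes, the chains of collagen VI and 5 of 9 small proteoglycans were lower. Of 26 collagen chain genes, 6 were at least 2-fold lower and 1 higher (median near 0), against 2.96% and 1.48% of all genes. Col1a1, the main chain of type I collagen, was at 14.18 in wild type with a difference of -0.18. The 3 chains of collagen VI, the beaded-filament collagen, were lower together: Col6a1 was at 13.20 and 12.17 (2.04-fold), Col6a2 at 12.94 and 11.66 (2.43-fold) and Col6a3 at 12.38 and 10.94 (2.71-fold). With TNF they were -1.11, -1.95 and -2.06 apart. Col2a1, Col5a3 and Col18a1 were 2.95-fold, 2.76-fold and 2.60-fold lower.

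Of 9 small leucine-rich proteoglycan genes, whose products bind collagen fibrils, 5 were lower and none higher, with a median of -1.03. The shares of all genes were 2.96% lower and 1.48% higher. The 5 were Lum, Fmod (12.42 and 11.12), Dcn, the abundant decorin (12.65 and 11.51, 2.21-fold lower), Prelp and Omd. The elastic-fibre gene Fbln1 was 4.86-fold lower and Mfap5 2.27-fold higher, among 19 genes with 1 higher and 2 lower. Of 25 matricellular genes, 4 were lower (Comp, Matn2, Nid2 and Lama4) and none higher, and Fn1, fibronectin, was at 14.23 and 14.29. Of 23 matrix protease and inhibitor genes, 4 were lower and none higher. Besides Mmp3 these were the collagenase gene Mmp13 (8.65 and below the floor, at least 5.23-fold), Mmp19 (2.06-fold) and Adamts9 (2.61-fold by its brightest probe set, with the second at 0.15 in the other direction).

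Contractile genes had small, mostly positive differences. Of 24 contractile and actin cytoskeleton genes, 23 had a positive difference, against 44.9% of all genes, and the median was 0.25. By the brightest probe set of each gene, Actg2 alone reached 2-fold (9.01 and 10.96), a share near the 1.48% of all genes. Acta2, smooth muscle actin, was at 13.65 and 13.85, and Tagln at 13.54 and 13.84. Dimmer Acta2 probe sets gave 1.21 and at least 0.52. Of 32 integrin, cadherin and adhesion genes, 5 were higher and 1 lower (median 0.27), against 1.48% and 2.96% of all genes. Itga8, the nephronectin-binding integrin chain, was at 9.33 and 11.16 (3.57-fold higher) and Ncam1 at 9.39 and 11.16 (3.43-fold). The cadherin genes Cdh10 and Cdh6 were 3.14-fold and 2.15-fold higher, Mcam was 2.36-fold higher, and L1cam, an adhesion molecule of neurites, was 6.17-fold lower (10.22 and 7.60). Of 39 guidance genes, 1 was higher (Ntn4) and 5 lower, the latter Flrt3, Sema6a, Efna5, Sema3a and Unc5c at 2.21- to 3.92-fold. The second probe sets of Ntn4 and Sema6a gave 0.60 and -0.73, short of 2-fold.

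Several inflammatory and innate immune genes were already lower before any TNF was given. Of 20 chemokine genes, 6 were at least 2-fold lower, against 2.96% of all genes, and none higher. The median was -0.18, and -1.53 with the floor at the 70th percentile, where fewer members enter. Beside Cxcl15 and Cxcl1 they were the neutrophil attractants Ppbp (9.81 and 7.01, 6.94-fold lower) and Cxcl5 (12.41 and 9.84, 5.95-fold), Cx3cl1, the tethered chemokine fractalkine (9.73 and 8.02, 3.27-fold), and the monocyte attractant Ccl2 (10.79 and 9.45, 2.53-fold). The second Cx3cl1 probe set gave -0.67, short of 2-fold. With TNF the difference was at least -5.72 for Cxcl15, which was then at the floor in the knockout, and -3.06 for Ppbp. For Cxcl5 and Ccl2 the TNF-pair differences were smaller, -0.84 and -0.17.

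Of 13 complement and acute-phase genes, 6 were lower (2.96% of all genes) and none higher, and 11 had negative differences. The classical pathway proteases C1ra (11.93 and 10.22) and C1s1 (11.52 and 10.46) were 3.27-fold and 2.07-fold lower, the lipopolysaccharide-binding protein Lbp 4.12-fold, and Saa3 5.26-fold. Hp, haptoglobin, was at 7.46 and below the floor, and the TNF pair was 3.50 log2 apart. The list median was -0.98, and -0.27 with the floor at the 30th percentile, which lets dimmer members in.

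Cytokine genes went both ways, with 2 of 17 higher (Il11, 2.34-fold, and Lif, 2.15-fold) and 4 lower (Tslp; the receptor chains Il13ra1 and Il1r1, 2.88-fold and 2.76-fold; and Il18, 2.09-fold). The shares of all genes were 1.48% higher and 2.96% lower. Il6 lay below the floor on both untreated arrays. Within the NF-kB pathway 1 of 15 genes, Relb, was lower (8.70 and 7.64) and none higher, with a median of -0.14, and Rela, the p65 subunit, was at 11.14 and 11.31. Prostaglandin genes included Ptgs2, the inducible cyclooxygenase (10.77 and 12.16, 2.62-fold higher), prostacyclin synthase Ptgis (2.09-fold higher) and the degrading enzyme Hpgd (9.15 and below the floor, at least 7.37-fold lower), among 11 measured.

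Of 31 interferon-stimulated genes, 5 were lower, against the same 2.96%, and none higher, with a median of -0.38 and 23 negative differences. The antiviral effectors Ifit1 (7.92 and 6.32, 3.03-fold), Ifit3 (9.12 and 7.91, 2.32-fold) and Ifit2 (2.22-fold), the RNA sensor Ifih1 (2.77-fold) and the tethering factor Bst2 (2.28-fold) were the lower members. The Ifit1 promoter printed above holds 2 ISRE matches. An ISRE stood in 13 of 24 promoters of the list (54.2%), 3.99% of all promoters, 3.43% of genes above the floor, 22 of 265 lower genes (8.30%) and 5 of 126 higher genes (3.97%). None of 12 MHC class I and peptide-loading genes reached 2-fold, but 11 had negative differences (median -0.49), among them B2m at 13.79 and 13.41.

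Metabolic and stress genes held 2-fold differences in both directions. Over all genes 1.48% were higher and 2.96% lower, so a count of 1 or 2 members says little about its list. Of 24 sterol synthesis and LDL uptake genes, 21 were negative (median -0.43) and 1, Abcg1, a cholesterol exporter, was 2-fold higher. That call rests on its brightest probe set (1.03), and the second gave 0.13. Of 24 adipogenic and lipid genes, 3 were lower, including the fatty-acid carrier Fabp4 (8.66 and below the floor) and the lipid-droplet gene Plin4 (9.18 and 6.88), and the adipokine Adipoq lay below the floor on all arrays. The glutathione synthesis gene Gclc (9.35 and 10.74) and the quinone reductase Nqo1 (8.33 and 9.45) were higher among 23 NRF2-target and superoxide dismutase genes, with Sod3 and Aldh3a1 lower. Glycolysis and hypoxia genes had 2 of 23 lower (Adm and Ndrg1), lysosomal genes 1 higher (Ctsc) and 1 lower (Cst3) of 19, and metal-handling genes 2 of 14 lower (Steap4 and Mt2). The other probe sets of Ctsc lay below the floor and give no reading. None of 11 housekeeping genes reached 2-fold, with a median of -0.10.

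Markers of cell identity were then read. Of 18 fibroblast markers, 4 were lower (Lum, Pdgfra, Cd34 and Twist1) and 1 higher (Mfap5), against 2.96% and 1.48% of all genes. Vim (14.15 and 14.06), Col1a1 and the stromal marker Thy1 (9.65 and 10.27) were present on both arrays. Defining markers of endothelium (Cdh5, Pecam1), keratinocytes (Krt14) and epithelial junctions (Cdh1), skeletal muscle (Myod1, Myog), pluripotent cells (Nanog, Pou5f1), liver (Alb, Afp) and red cells (Hba-a1) lay below the floor on both, while the endothelial receptor gene Kdr, also a defining marker, was at 7.15 and 7.32. No marker of endothelium, epithelium, skeletal muscle, liver and erythroid cells, glia or osteoblasts reached 2-fold, with 6, 10, 5, 4, 5 and 3 of them above the floor. Epcam, an epithelial adhesion gene, was at 9.05 and 9.19 by a probe set of a type that can share probes with other transcripts. Its other probe set lay below the floor on both arrays. Of the germ cell and stem cell markers, Ddx4 (8.90) and Sox2 (7.31) were above the floor in wild type and below it in the knockout.

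Of 19 macrophage and leukocyte markers with a probe set, 8 lay above the floor and all 8 had positive differences (median 0.42). The lysozyme genes Lyz1 (7.56 and 9.41) and Lyz2 (7.89 and 9.60) and the CSF1 receptor gene Csf1r (6.60 and 7.90) were 3.62-fold, 3.28-fold and 2.46-fold higher. For Csf1r the other probe sets above the floor gave 0.45 and 0.22, short of 2-fold. The Lyz1 probe sets that rose above the floor are of a type that can share probes with other transcripts. The remaining Lyz1 probe set lay below the floor on all arrays, and whether Lyz1 and Lyz2 are separate readings was not tested. Of the 3 defining markers, Ptprc and Adgre1 lay below the floor on both arrays and Csf1r above it; Cd68, Itgam and Tyrobp also lay below it. The linear signals of all 19 markers summed to 1581 on the wild-type and 3055 on the knockout array, and without Lyz1, Lyz2 and Csf1r to 1059 and 1357; with TNF the sums were 2267 and 2083. In the TNF pair Lyz1, Lyz2 and Csf1r differed by -0.32, -0.16 and 0.03. Any part of such cells in the lower chemokine, complement and interferon transcripts was not tested. The neuronal marker list held Penk and Map2 as lower (131-fold and 5.16-fold) and the tubulin-binding stathmin Stmn2 as higher (2.35-fold), with Snap25 below the floor. Tubb3, a defining marker of the same list, was below the floor in wild type and at 7.10 in the knockout (at least 0.84). In the TNF pair Tubb3 differed by 1.65 and Map2 by at least -0.21. Of 11 neuronal markers above the floor, 5 had positive and 6 negative differences. Among cartilage markers Comp and Col2a1 were lower and Acan lay below the floor. Among smooth muscle and pericyte markers Mcam alone reached 2-fold by the brightest probe set of each gene. The X-inactivation transcript Xist was at 12.38 and 12.04, and all 5 Y-linked genes with a probe set lay below the floor on both.

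Finally, the genes that flank Nsmaf were examined, since a targeted allele is passed on together with the chromosome around it. In RefSeq gene order (GRCm38.p6), 18 genes with a probe set lie before Nsmaf and the nearest 20 after it were taken, and 23 of the 38 lay above the floor. Of these, 1 was at least 2-fold higher and 2 lower, against 1.48% and 2.96% of all genes, and the median was -0.05. The 3 include the extremes of the whole array. Penk, 7 genes away, is the most strongly lower gene, and Cd99, 18 genes away in this order, the most strongly higher. The order follows start positions alone. Whether Cd99, the first gene in it, is placed on the assembled chromosome beside Nsmaf was not checked. The second probe set of Cd99 gave 3.26. Tox, a nuclear HMG-box factor and the next measured gene after Nsmaf, was at 8.59 and 6.63 (3.89-fold lower), and its second probe set gave -1.55. Fam110b, 4 genes before Nsmaf, had a negative difference just short of 2-fold. In the TNF pair Cd99 differed by at least 4.66, Penk by -6.15 and Tox by at least -1.52. A difference carried by the chromosome around Nsmaf and one that comes with the missing protein cannot be told apart here.

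**Figure D5:**
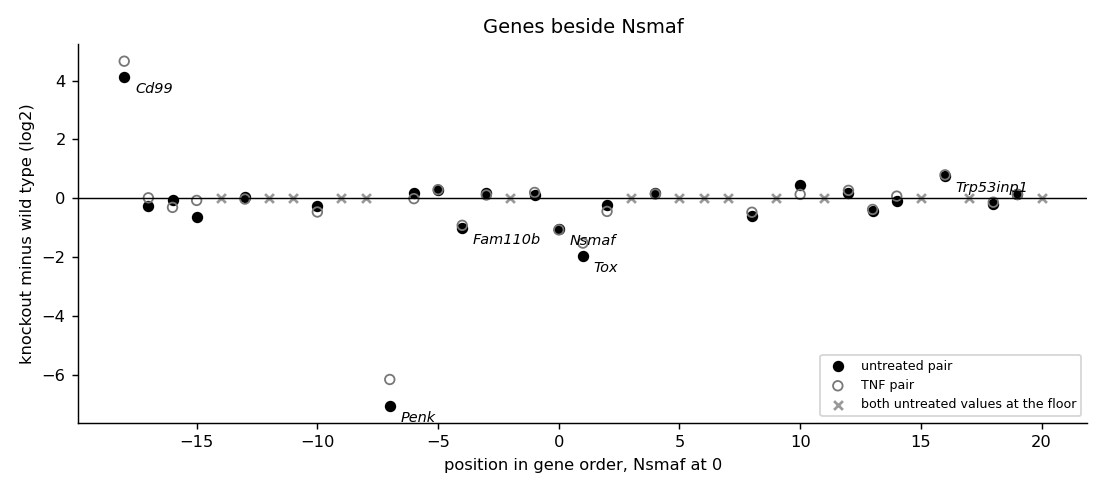
Knockout minus wild-type log2 difference (vertical) of the genes around Nsmaf in order of start position (horizontal, Nsmaf at 0). Filled points are the untreated pair, open points the TNF pair, and crosses are genes at the floor on both untreated arrays. Cd99, Penk and Tox stand apart at 4.12 or more, -7.04 and -1.96, Nsmaf itself at -1.05, and the other genes above the floor lie within 2-fold.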

How the data were processed

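The deposited series table holds log2 values per probe set, which run from 2.79 to 14.40; per the submitters' processing notes the authors used MAS5, with no version given. The 4 arrays have nearly equal quantiles, so the summary method and any normalization between arrays are unknown, and with them how far low values or differences were compressed. Values were used as deposited. Of 45101 probe sets, 64 controls, 932 naming several genes and 9160 unnamed ones were left out of gene-level results; the other 34945 name 1 gene, and 34741 of them matched RefSeq by Entrez identifier. For each gene the probe set of highest mean over the arrays was used. The floor was the 50th percentile of all values, log2 6.27. A gene was called at a difference of at least 1 on the log2 scale.

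Of 53 gene lists with 1176 members on the array, 34 had a negative median. Members and lists were chosen with earlier results of these data known. The genes chosen for naming were Nsmaf, the 15 highest and 15 lowest above the floor on both untreated arrays, and the 8 largest bounds each way. To these came the defining members of each list with up to 8 further members at least 2-fold apart, and genes beside Nsmaf at least 2-fold apart. Some of the chosen genes are not described, such as Elobl (2.71 untreated and 0.89 with TNF). Further Hox genes, Fam110b and the genes with an E2F site were named with values in view. Meis2, Shox2, Irx3, Cd68, Itgam and Tyrobp were also named outside this rule. The gene-level step was run on simulated data with little noise and with changes only in genes well above the floor. That run checks the code and gives no error rate for the calls reported here. Alternatives were floors at the 30th and 70th percentile, no floor with log2(value + 16), median centring, quantile normalization, the mean of all probe sets, the second probe set, and genes with a mean above the floor. Python 3.11.15, pandas 2.3.3, numpy 2.4.6 and matplotlib 3.10.9 were used. The number of arrays, 1 per condition, limits the precision.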

Additional observations from a re-analysis of the deposited data

Results flagged for a closer look

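Lif, a cytokine of the IL-6 family, was 1.11 log2 higher in untreated knockout cells and differed by -0.47 in the TNF pair; the opposite signs were not tested. Lyz1, a lysozyme gene, was 1.86 higher untreated and differed by -0.32 in the TNF pair, which was likewise not tested. Its probe set is of a type that can share probes with other transcripts. Among the 10092 probe sets that do not name exactly 1 gene and entered no comparison, 2741 lay above the floor on an untreated array and 68 were at least 2-fold apart, 30 higher and 38 lower in the knockout.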

How the results depend on the processing

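No paired analysis was possible because each condition has 1 array and the labels give no replicate numbers. Median centring, quantile normalization, the mean of all probe sets, genes with a mean above the floor, the floor at the 30th percentile and no floor left the counts of higher and lower genes within 1.5 times of 177 and 353. With the floor at the 70th percentile the counts were 103 and 219, with 171 genes seen again at 2-fold in the TNF pair (284 in the main setting) and 123 with a second probe set of the same sign (200 in the main setting); with each gene's second probe set they were 74 and 113, with 104 seen again. Fewer genes enter under both. The share of lower genes among those 2-fold apart was 66.6%, 72.7% after centring and 61.3% after quantile normalization.

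List medians moved by over 0.25 as follows. With the floor at the 30th percentile they were complement (-0.27), adipocyte (-0.77) and stem cell (-1.04) lists, and glia (0.20, reversed). At the 70th percentile they were chemokines (-1.53), cytokines (-0.52), Hox (0.11), mitosis (-0.41), prostaglandin genes (0.60), and the leukocyte (1.57), adipocyte (-0.81), chondrocyte (-2.32), glia (-0.60), skeletal muscle (0.50) and stem cell (-1.05) markers. With no floor they were the adipocyte (-0.63), chondrocyte (-0.80), skeletal muscle (0.49) and stem cell (-1.27) markers, and with the mean of all probe sets proteoglycans (-0.63) and chondrocyte markers (-0.88). With the second probe set they were complement (-0.43), cytokines (-0.41), Hox (0.31), MHC class I (-0.86), mitosis (-0.40), prostaglandin genes (0.50), proteoglycans (-0.57), Wnt (0.13, from -0.15), and the adipocyte (-1.77), chondrocyte (-0.63), epithelial (0.49) and neuronal (0.25, from -0.10) markers; glia (0.10) and stem cell (0.18) reversed, the latter also for genes with a mean above the floor (0.12).

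Of the named genes, 84 moved and 58 did not with the second probe set, and Adamts9 (0.15) and Igfbp5 (0.14) reversed. At the 70th percentile 98 moved, with the mean of all probe sets 72, at the 30th percentile 30 and with no floor 25; centring, quantile normalization and the filter on means moved none. The cause was not tested. Nsmaf has 1 probe set, so its second could not be read. Dim genes near the floor are the least certain, and no replicate gives an error for any difference.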
